A study of Mus musculus with 6 samples.

Results

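The genes described here are Atf4, 7 genes that the integrated stress response is known to induce (Ddit3, Atf3, Trib3, Ddit4, Sesn2, Asns and Chac1), and the genes of both ER oxidases, Ero1l and Ero1lb. They were chosen by name for their roles in this pathway, with earlier results of these data known. All 10 were found among the 17068 genes of the deposited count table, which the authors had already filtered for low counts. The counts come from bulk RNA-Seq of lateral cortex from 6 female mouse embryos of C57BL/6 background at embryonic day 12.5. Of these, 4 were Cre-negative controls. Controls 1, 2 and 4 were Foxp1 fl/+ and control 3 was Foxp1 fl/fl. The other 2 were labelled Foxp1 fl/fl;Emx1Cre, called Foxp1cKO in the study. All 6 carried at least 1 floxed Foxp1 allele, and only the embryos labelled Foxp1cKO carried Cre. Emx1Cre acts in progenitors of the dorsal telencephalon and the cells they give rise to, so blood and vessel cells in the same tissue are not its target.

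Between 50076008 and 78346979 reads per library were assigned to genes, so that 3 counts, taken here as the least a library can show, equal 0.0381 to 0.0596 CPM (read counts divided by the library total after TMM scaling, on the usual scale). Foxp1 itself was at 59.7 to 79.1 CPM in the controls and at 83.2 and 76.8 CPM in libraries Foxp1cKO 1 and 2. It was therefore not lower over the whole gene in the libraries labelled Foxp1cKO, and each direction given here rests on the labels. The cortical markers Emx1 and Pax6 were present in every library, at 68.8 CPM or more. Control 3 stood apart in markers of the ventral telencephalon. Its 7 listed genes summed to 495 CPM, against 165 to 361 in the other libraries, and Nkx2-1 was at 13.2 CPM there and at no more than 1.07 CPM elsewhere. Control 4 and both libraries labelled Foxp1cKO had more red cell RNA. Their 9 listed red cell genes summed to 3544, 3849 and 4143 CPM, against 1100 to 1451 in controls 1 to 3. In bulk tissue, more cells of a type and more RNA per cell cannot be told apart.

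In the integrated stress response, several kinases sense unfolded protein in the ER, lack of amino acids, double-stranded RNA or lack of heme, and all phosphorylate the translation factor eIF2. Most translation then slows, whereas the mRNA of the transcription factor ATF4 is translated better through its upstream open reading frames. ATF4 and its partners induce genes for amino acid supply, redox balance and, under lasting stress, cell death. ATF4 is thus set largely at translation, and the counts given here measure its mRNA only. Some of the genes have a further known regulator: Ddit4 and Ero1l are also induced through HIF-1 in hypoxia, and Ddit4, Sesn2 and Atf3 through other stress pathways.

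The windows of 250 bases before the annotated start of each gene were read from RefSeq (GRCm38.p6, the assembly also called mm10), where all 10 genes matched, Ero1l and Ero1lb as Ero1a and Ero1b. Each was searched on both strands for the composite element bound by ATF4 with C/EBP proteins (TGATGNAA), the hypoxia response cores ACGTG and GCGTG, the cyclic AMP element TGACGTCA, and the ER stress element. The composite element was found in 3 of the 10 windows, those of Atf3, Asns and Chac1, against 3.45% of all 32851 windows searched. ACGTG was in 3 (Ddit4, Asns and Ero1l), against 16.6% of all windows, and GCGTG in 9, against 28.2%. The ER stress element was in the window of Ero1lb alone among the 10, against 0.113% of all windows. The cyclic AMP element was in 0 of the 10, against 1.55%. The windows of the 10 genes held 57.2% (Trib3) to 80.8% (Ero1l) G and C bases, and the shares over all windows were not matched for base content. A match to these letters is a description and not a binding site. Shown here are the windows with the composite element, those of Ero1l, the only gene past the threshold, and Ddit4, called by DESeq2, and that of the other oxidase gene. They lie at chr1:191183334-191183583 on the minus strand (Atf3), chr6:7693210-7693459 on the minus strand (Asns), chr2:119350992-119351241 on the plus strand (Chac1), chr10:59951771-59952020 on the minus strand (Ddit4), chr14:45318573-45318822 on the minus strand (Ero1l) and chr13:12565633-12565882 on the plus strand (Ero1lb). The RefSeq starts of these genes lie 9 to 199 bases inside the GENCODE gene spans, which reach to the outermost transcript, and 34706 bases inside for Atf3. Each window is given 5′ to 3′ on the strand of the gene, with every match to a searched motif in capitals.
Atf3: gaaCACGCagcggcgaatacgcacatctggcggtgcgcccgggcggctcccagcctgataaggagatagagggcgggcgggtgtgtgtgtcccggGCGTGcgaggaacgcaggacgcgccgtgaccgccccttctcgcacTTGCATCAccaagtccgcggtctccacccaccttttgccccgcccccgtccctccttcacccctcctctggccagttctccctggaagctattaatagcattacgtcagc
Asns: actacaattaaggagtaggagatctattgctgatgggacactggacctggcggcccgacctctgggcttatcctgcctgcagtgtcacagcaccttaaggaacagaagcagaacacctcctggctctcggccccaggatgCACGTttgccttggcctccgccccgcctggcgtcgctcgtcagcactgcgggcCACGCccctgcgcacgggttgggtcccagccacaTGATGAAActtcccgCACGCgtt
Chac1: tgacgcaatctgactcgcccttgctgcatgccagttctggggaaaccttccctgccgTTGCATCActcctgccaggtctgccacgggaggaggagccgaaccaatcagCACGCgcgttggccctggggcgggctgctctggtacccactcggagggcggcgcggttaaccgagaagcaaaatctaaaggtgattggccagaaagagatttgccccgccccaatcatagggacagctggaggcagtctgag
Ddit4: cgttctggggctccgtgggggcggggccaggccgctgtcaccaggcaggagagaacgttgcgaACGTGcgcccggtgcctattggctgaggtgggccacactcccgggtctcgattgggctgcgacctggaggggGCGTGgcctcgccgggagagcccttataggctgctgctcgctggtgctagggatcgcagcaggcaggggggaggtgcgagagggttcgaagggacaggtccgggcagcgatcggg
Ero1l: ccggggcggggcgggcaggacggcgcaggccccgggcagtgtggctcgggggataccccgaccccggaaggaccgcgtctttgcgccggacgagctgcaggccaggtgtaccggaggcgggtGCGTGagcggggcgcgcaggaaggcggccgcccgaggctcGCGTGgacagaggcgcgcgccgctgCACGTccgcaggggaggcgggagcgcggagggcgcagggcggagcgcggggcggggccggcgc
Ero1lb: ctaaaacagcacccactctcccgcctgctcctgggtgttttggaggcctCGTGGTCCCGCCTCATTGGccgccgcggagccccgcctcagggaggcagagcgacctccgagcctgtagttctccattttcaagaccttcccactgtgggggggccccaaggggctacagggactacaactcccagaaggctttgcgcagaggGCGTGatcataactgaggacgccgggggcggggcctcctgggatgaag

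The composite element reads TTGCATCA, the reverse complement of the form searched, in both Atf3 (110 to 103 bases before the start) and Chac1 (193 to 186 bases before). In Asns it reads TGATGAAA, 23 to 16 bases before the RefSeq start, which lies 45 bases inside the GENCODE gene. The ER stress element of Ero1lb, read on the opposite strand, is the run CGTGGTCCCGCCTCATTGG at 201 to 183 bases before the start.

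To ask whether the response differed with the labelled genotype, all 17068 genes were fitted with edgeR (quasi-likelihood test) and the p-values adjusted by the Benjamini-Hochberg method. Only Ero1l of the 10 passed an adjusted p of 0.05, and it was higher in the libraries labelled Foxp1cKO. That is 1 of 10 genes, against 0.152% of all genes called higher. Called lower were 0 of 10, against 0% of all genes, and with unadjusted p-values under 0.05 none of the 10 was lower, against 6.5% of all genes. Before adjustment 5 of the 10 were higher at a p under 0.05 (Ero1l, Ddit4, Asns, Chac1 and Sesn2), against 6.53% of all genes. DESeq2, run as an alternative, called Ero1l and Ddit4 higher, 2 of 10 against 2.06% of the genes to which it gave an adjusted p, and called 0 lower, against 1.31%. Both libraries labelled Foxp1cKO lay above all 4 controls for 6 genes (Ero1l, Ddit4, Asns, Chac1, Sesn2 and Atf3), against 11.5% of all genes, and below all 4 for Atf4, against 13.1%. The median log2 fold change was 0.50 over the 10 and -0.0044 over all genes. Because the 10 were chosen with earlier results of these data known, these shares are no independent evidence. Ddit4, for example, is in the study's own table of top upregulated genes.

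**Figure D1:**
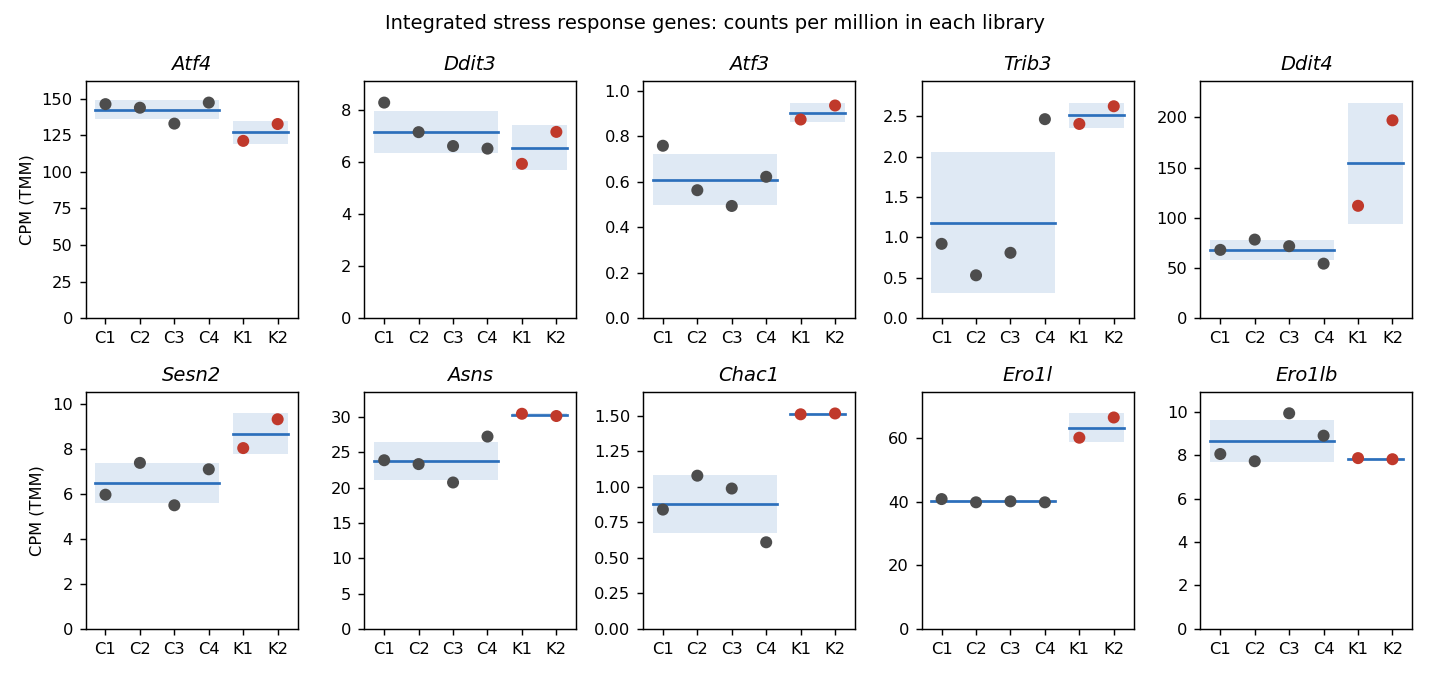
CPM (linear axis from 0, TMM-scaled) of each of the 10 genes in controls 1 to 4 (C1 to C4, grey) and in the libraries labelled Foxp1cKO 1 and 2 (K1 and K2, red), with the mean of each group as a line and ± 1 SD shaded. Ero1l shows controls between 39.9 and 40.9 CPM and both red points at 60.2 and 66.6 CPM, whereas for Trib3 control 4 lies with the red points.

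Ero1l and Ero1lb encode the oxidases that return the ER protein disulfide isomerases to their oxidized form, which lets these isomerases form disulfide bonds in new proteins. Ero1l (ENSMUSG00000021831.9, chromosome 14, 45283087 to 45318771, GRCm38) was at 40.9, 39.9, 40.2 and 39.9 CPM in controls 1 to 4. In libraries Foxp1cKO 1 and 2 it was at 60.2 and 66.6 CPM. The SD of the controls was 0.481 CPM about a mean of 40.2, relative to the mean the narrowest spread of the 10 genes, and both other libraries were clear of them. Ero1l rose 1.58-fold in the libraries labelled Foxp1cKO (log2 fold change 0.66, standard error 0.0735, adjusted p = 0.0331 by edgeR), and ranked 21 among all genes by p. Against single controls the difference of the mean log2 CPM was 0.63 to 0.67. The call was lost when control 1, 2 or 3 or either library labelled Foxp1cKO was left out, with adjusted p-values of 0.0768 to 0.389 by edgeR and log2 fold changes of 0.57 to 0.73. With the replicate number as a block, the log2 fold change was 0.65 and the adjusted p by edgeR 0.200. In that fit controls 3 and 4 have no partner and add nothing to the comparison. With numbers 1 and 2 crossed between the groups, a setting added after the data were seen, the values were 0.65 and 0.00308. Nothing in the labels pairs the numbers, so these 2 fits do not settle the call.

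Ero1lb (ENSMUSG00000057069.7, chromosome 13, 12565874 to 12611396) showed 8.06, 7.72, 9.93 and 8.90 CPM in controls 1 to 4 and 7.87 and 7.82 CPM in libraries Foxp1cKO 1 and 2. The groups overlapped, and the log2 fold change of -0.14 was within its standard error of 0.154 (adjusted p = 0.728 by edgeR). Per length, Ero1l exceeded Ero1lb 6.39-, 6.50-, 5.09- and 5.64-fold in controls 1 to 4 (ratio of RPKM, CPM divided by the union exon length in kilobases). The ratio was 9.64 and 10.7 in libraries Foxp1cKO 1 and 2, above every control. An exact two-sided permutation test of this ratio gave p = 0.133. That is the smallest value this form of the test, which doubles the one-sided p, can give for 4 libraries against 2.

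Ddit4, Sesn2 and Trib3 encode brakes on growth signalling. Ddit4 (also called REDD1) acts through the TSC complex to inhibit the growth kinase complex mTORC1, Sesn2 is a leucine sensor that also restrains mTORC1, and Trib3 is a pseudokinase that binds ATF4 and AKT. Ddit4 (ENSMUSG00000020108.4, chromosome 10, 59949669 to 59951834) was at 68.1, 78.3, 71.8 and 54.3 CPM in controls 1 to 4. It was at 112 CPM in library Foxp1cKO 1 and at 197 CPM in library Foxp1cKO 2. Both exceeded all controls, but they were also far apart from each other. The log2 fold change was 1.18 (2.27-fold, standard error 0.226), and did not pass the threshold (adjusted p = 0.194 by edgeR). DESeq2 gave the same 1.18 and an adjusted p of 0.000387, so the call depended on the test. The value also depended on library Foxp1cKO 2: without it the log2 fold change was 0.70, and without library Foxp1cKO 1 it was 1.53.

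Sesn2 (ENSMUSG00000028893.8, chromosome 4, 132492032 to 132510501) showed 5.96, 7.37, 5.49 and 7.09 CPM in controls 1 to 4 and 8.03 and 9.31 CPM in libraries Foxp1cKO 1 and 2. The groups did not overlap, but the exact 95% Poisson intervals of the nearest libraries did (7.26 to 8.85 CPM in Foxp1cKO 1 and 6.71 to 8.08 CPM in control 2, counting error only). Sesn2 had a log2 fold change of 0.42, with a standard error of 0.176 and an adjusted p of 0.378 by edgeR. Of the related genes, Sesn1 had a log2 fold change of -0.21 and Sesn3 one of 0.011, and the Ddit4 paralogue Ddit4l one of -0.38. None of the 3 passed the threshold.

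Trib3 (ENSMUSG00000032715.9, chromosome 2, 152337422 to 152344032) split the controls. It was at 0.920, 0.531 and 0.809 CPM in controls 1, 2 and 3 and at 2.46 CPM in control 4. Libraries Foxp1cKO 1 and 2 had 2.40 and 2.62 CPM, so control 4 lay between them. The log2 fold change was 1.08 with a standard error of 0.559 (adjusted p = 0.453 by edgeR), and 1.74 without control 4 (standard error 0.290, adjusted p = 0.0782 by edgeR). The 3 libraries high in Trib3 were the same 3 that were high in red cell RNA. Alas2, the heme synthesis enzyme of red cells, was at 13.5 to 21.7 CPM in controls 1 to 3 and at 40.4, 46.7 and 49.2 CPM in control 4 and libraries Foxp1cKO 1 and 2. Of the 9 red cell genes 0 passed the threshold by edgeR. At an unadjusted p under 0.05, 3 were higher (6.53% of all genes), and DESeq2 called 1 higher (2.06%). Without control 4, 5 of the 9 passed by edgeR, 7 in place of 4 lay above the controls, and the median log2 fold change was 1.56. The part of red cell RNA in the level of Trib3 was not tested. Trib1 and Trib2, its paralogues, had log2 fold changes of -0.073 and -0.22.

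**Figure D2:**
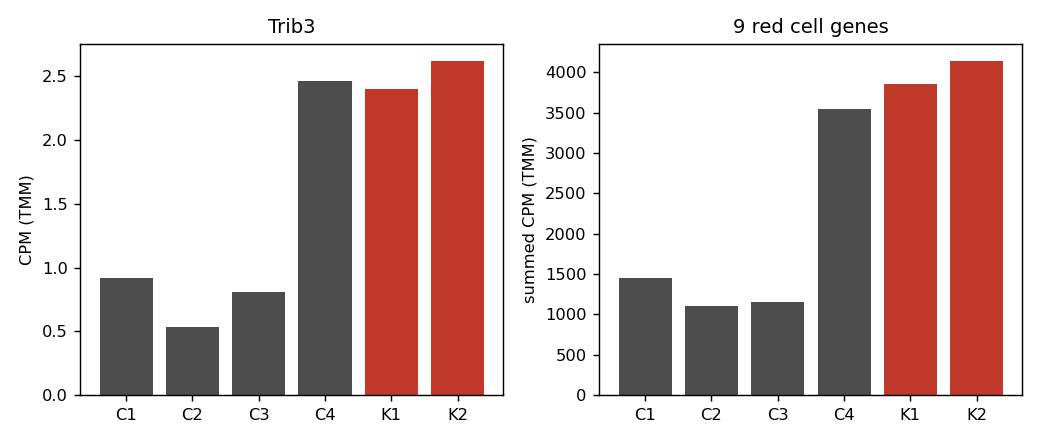
Trib3 (left, CPM) and the summed CPM of 9 red cell genes (right) in controls 1 to 4 (C1 to C4, grey bars) and the libraries labelled Foxp1cKO 1 and 2 (K1 and K2, red bars), on linear axes from 0, each bar 1 library. In both panels control 4 stands with the red bars, at 2.46 CPM for Trib3 and 3544 CPM for the red cell genes, and controls 1 to 3 are lower.

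Asns encodes asparagine synthetase and Chac1 an enzyme that breaks down glutathione, and both carry the composite element within their windows shown above. Asns (ENSMUSG00000029752.12, chromosome 6, 7675169 to 7693254) was at 23.9, 23.3, 20.7 and 27.2 CPM in controls 1 to 4 and at 30.4 and 30.1 CPM in libraries Foxp1cKO 1 and 2. The latter were close to each other and above all controls, by little in the case of control 4. The log2 fold change of Asns, 0.35, had a standard error of 0.118 and did not pass (adjusted p = 0.315 by edgeR). Chac1 (ENSMUSG00000027313.3, chromosome 2, 119351229 to 119354381) showed 0.840, 1.08, 0.988 and 0.610 CPM in controls 1 to 4 and 1.51 and 1.52 CPM in libraries Foxp1cKO 1 and 2. The groups were separate, on 48 to 115 counts per library. At this depth the 95% Poisson intervals of the nearest libraries overlapped (1.19 to 1.89 CPM in Foxp1cKO 1 and 0.836 to 1.37 CPM in control 2). Chac1 had a log2 fold change of 0.79, with a standard error of 0.279 and an adjusted p of 0.332 by edgeR. For its paralogue Chac2 it was 0.23, with overlapping groups.

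Of the 3 transcription factor genes, 0 passed the threshold by edgeR or DESeq2 and 0 had an unadjusted p under 0.05. Atf4 (ENSMUSG00000042406.8, chromosome 15, 80255184 to 80257541) showed 146, 144, 133 and 147 CPM in controls 1 to 4 and 121 and 133 CPM in libraries Foxp1cKO 1 and 2. Library Foxp1cKO 2 and control 3 were level within counting error. The log2 fold change of Atf4 was -0.17, with a standard error of 0.0794 and an adjusted p of 0.420 by edgeR, and it stayed below 0 in all 14 alternatives, between -0.25 and -0.10. Ddit3 (ENSMUSG00000025408.15, chromosome 10, 127290774 to 127296288) encodes CHOP, a C/EBP factor of the cell death branch. It was at 8.30, 7.16, 6.63 and 6.53 CPM in controls 1 to 4 and at 5.94 and 7.17 CPM in libraries Foxp1cKO 1 and 2, with overlapping groups. The log2 fold change of Ddit3, -0.12, was smaller than its standard error of 0.172 (adjusted p = 0.795 by edgeR). GENCODE M21 lists a second gene entry of the name Ddit3 on the same strand that shares 105 exon bases with this one. The authors counted on an earlier release. If it held both entries, union counting would have dropped reads in the shared bases, so the level of Ddit3 is uncertain. On the opposite strand Mars, a tRNA synthetase gene, shares 68 exon bases with Ddit3 and Gm4189 shares 13. Atf3 (ENSMUSG00000026628.13, chromosome 1, 191170296 to 191218039) encodes a factor that is also an immediate early gene. It was at 0.759, 0.563, 0.494 and 0.622 CPM in controls 1 to 4 and at 0.874 and 0.936 CPM in libraries Foxp1cKO 1 and 2. The latter were above all controls, but on 35 to 71 counts per library the intervals of the nearest libraries overlapped (0.635 to 1.17 CPM and 0.558 to 1.01 CPM). Atf3 had a log2 fold change of 0.57, with a standard error of 0.266 and an adjusted p of 0.414 by edgeR. Of 10 other immediate early genes in the table, 6 had a log2 fold change above 0. Fos had 1.42 and Junb 1.00 at the upper end, and Btg2 -0.35 (below all controls) and Ier2 -0.37 at the lower. By edgeR 0 passed the threshold. At an unadjusted p under 0.05, 3 were higher and 1 lower (Btg2), against 6.53% and 6.5% of all genes. DESeq2 called 2 higher, against 2.06%.

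**Figure D3:**
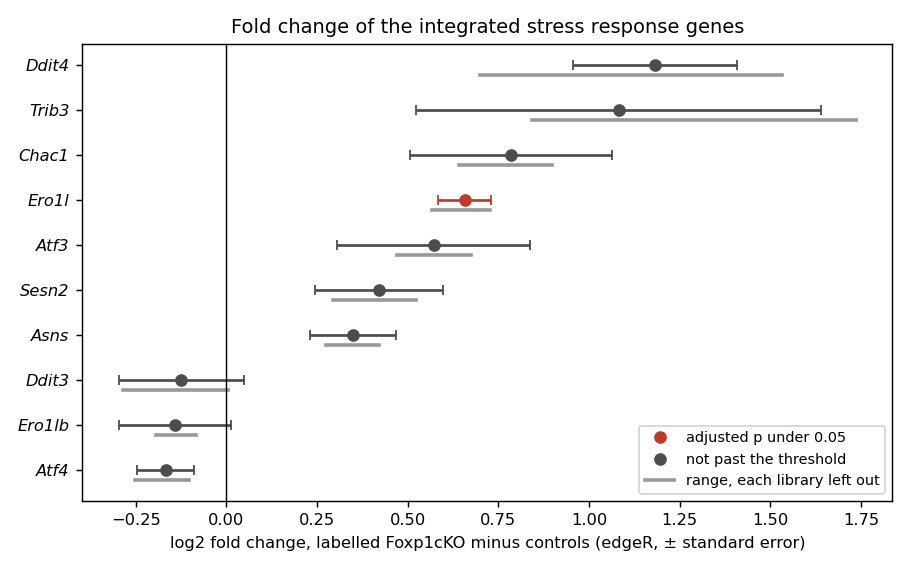
Log2 fold change (libraries labelled Foxp1cKO minus controls, edgeR) of the 10 genes as points with ± 1 standard error, in red where the adjusted p was under 0.05, and the range of the value when each of the 6 libraries was left out in turn as a grey bar. Ero1l has the shortest error bar and is the only red point, while Ddit4 and Trib3 have values of 1.18 and 1.08 and the widest grey bars, from 0.70 to 1.53 and from 0.84 to 1.74.

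Levels were compared between genes per length, in RPKM. In the controls Atf4 was highest, at 60.4 ± 2.79 RPKM (SD, n = 4), followed by Ddit4 at 38.8 ± 5.76. Asns (8.69 ± 0.976) and Ero1l (7.61 ± 0.0911) came next and their ranges overlapped. Ddit3 (4.18 ± 0.474), Sesn2 (1.86 ± 0.258) and Ero1lb (1.30 ± 0.148) followed, each with a range clear of its neighbours. Trib3 (0.556 ± 0.410) overlapped Chac1 (0.537 ± 0.125), and Atf3 was lowest at 0.283 ± 0.0522. The genes therefore spanned more than 2 orders of magnitude. In the libraries labelled Foxp1cKO Ddit4 was first, at 63.8 and 112 RPKM, above Atf4 at 51.4 and 56.2 RPKM, and Ero1l was above Asns. The other places were kept, except that Trib3 and Ero1lb, at means of 1.18 RPKM each, were level. These orders are a description without a test.

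**Figure D4:**
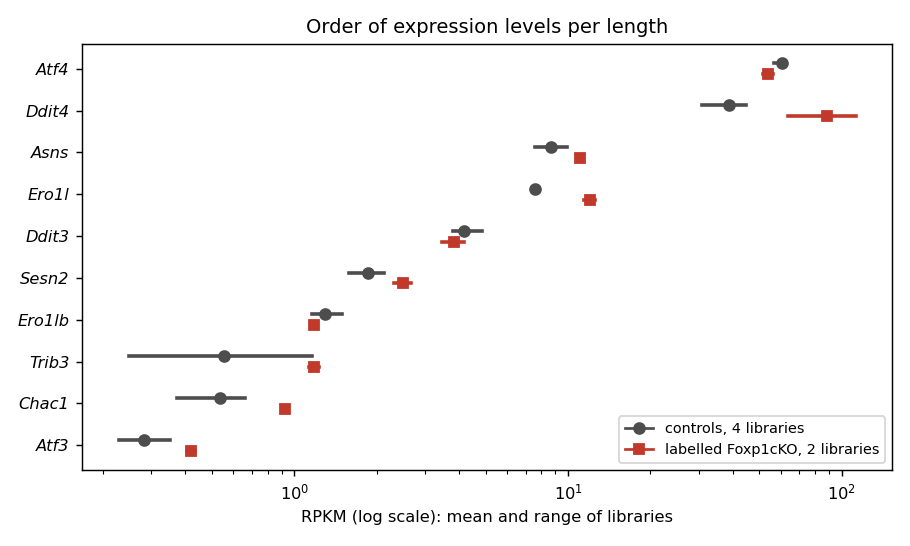
RPKM (log axis) of the 10 genes, ordered by the control mean, with the mean and the range over 4 controls (grey circles and bars) and 2 libraries labelled Foxp1cKO (red squares and bars). Atf4 and Ddit4 change places between the groups, from 60.4 and 38.8 RPKM in the controls to 53.8 and 88.0 RPKM.

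Other genes of the pathway were described as lists. Over 8 lists with 116 genes beside the 10, 0 passed the threshold by edgeR, 29 had an unadjusted p under 0.05, 5 of them higher and 24 lower, and DESeq2 called 2 higher and 6 lower. The median log2 fold change of these genes was -0.10, with 34 above 0 and 82 below. Both libraries labelled Foxp1cKO lay above all controls for 10 of the 116 (11.5% of all genes) and below all controls for 35 (13.1% of all genes). Of all genes, 6.53% were higher and 6.5% lower at an unadjusted p under 0.05, and DESeq2 called 2.06% higher and 1.31% lower.

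The 15 genes of the upstream machinery, which include the 4 eIF2 kinases, the subunits of the exchange factor eIF2B and the phosphatase subunits that reverse the signal, had a median of -0.11, which was -0.22 without control 3, -0.17 without control 2 and -0.088 without control 4, and 6 were below all controls (13.1% of all genes). Eif2b4 was lowest, at -0.31 (standard error 0.0755, adjusted p = 0.242 by edgeR and 0.0253 by DESeq2). Eif2ak3, which encodes the ER kinase PERK, was at -0.036, Eif2ak4, the kinase of amino acid lack, at 0.068, and Ppp1r15a, a phosphatase subunit that ATF4 and CHOP induce, at 0.083, all 3 with overlapping groups. Among 21 amino acid genes known as ATF4 targets the median was -0.030, with 4 above and 4 below all controls (11.5% and 13.1% of all genes). Its sign depended on single libraries, with -0.13 without control 3 and 0.031 without library Foxp1cKO 1. Shmt2, of mitochondrial serine metabolism, had the highest value at 0.49 (91.2 ± 16.3 CPM in controls and 128 ± 5.25 CPM in the libraries labelled Foxp1cKO, adjusted p = 0.313 by edgeR). Psph, of serine synthesis, was lowest at -0.26. Psat1, Phgdh and the cystine transporter gene Slc7a11 had overlapping groups, at -0.020, -0.13 and 0.40.

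Of 12 further stress targets in the table the median was 0.028, which was -0.055 without control 3 and 0.19 without control 4. Above all controls were 3 of the 12 (11.5% of all genes), and below all controls 0 (13.1%). Stc2, which encodes a secreted glycoprotein, averaged 4.07 ± 1.24 CPM over the 4 controls and 17.9 ± 5.90 CPM over the 2 libraries labelled Foxp1cKO (± SD). Stc2 thus had a log2 fold change of 2.14 (adjusted p = 0.0758 by edgeR and 1.9e-08 by DESeq2). Without control 4 it passed by edgeR, the only one of the 116 genes to do so in any leave-one-out fit. Vldlr, a lipoprotein receptor gene, was at 0.90 (adjusted p = 0.282 by edgeR and 0.0492 by DESeq2). Both are also known to respond to hypoxia. Atf5, Cebpb and Nupr1, which encode transcription regulators downstream of ATF4, had overlapping groups, at -0.10, 0.058 and -0.093.

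Of 12 cytosolic tRNA synthetase genes listed, which ATF4 is known to induce, 11 were matched by symbol, and these 11 had log2 fold changes below 0, from -0.31 to -0.035 with a median of -0.21, and 9 were below all controls. Aars was lowest, with 188, 182, 181 and 177 CPM in controls 1 to 4 and 148 and 147 CPM in libraries Foxp1cKO 1 and 2 (adjusted p = 0.236 by edgeR and 0.00287 by DESeq2). None of the 11 passed the threshold by edgeR, while 6 had an unadjusted p under 0.05 and DESeq2 called 3 lower. The share of all genes was 13.1% below all controls and 6.5% lower at an unadjusted p under 0.05. The 12th, Mars, was listed under its newer symbol and matched afterwards, outside these counts. It was at 94.2 ± 5.97 CPM in the controls and 79.5 ± 1.66 CPM in the libraries labelled Foxp1cKO, below all controls (log2 fold change -0.25, adjusted p = 0.315 by edgeR). The number below all controls was 9 of 11 without control 4 and 11 without control 3. Of 21 genes of the XBP1 and ATF6 arms of the unfolded protein response, 17 were below 0 with a median of -0.19, and 8 were below all controls (13.1% of all genes). Hspa5, the ER chaperone BiP, had 344, 342, 321 and 336 CPM in controls 1 to 4 and 263 and 282 CPM in libraries Foxp1cKO 1 and 2 (log2 fold change -0.30, adjusted p = 0.242 by edgeR and 0.0101 by DESeq2). Xbp1 was at -0.35, with control 4 as low as the libraries labelled Foxp1cKO. Here too 0 passed by edgeR, 6 were lower at an unadjusted p under 0.05 (6.5% of all genes), and DESeq2 called 1. Of 13 genes of oxidative folding, the partners of the ER oxidases, 2 were above 0 and 11 below. Their median was -0.11, and P4hb, the main disulfide isomerase gene, was at -0.045. None of them passed with edgeR or DESeq2, and 1 was lower at an unadjusted p under 0.05 (6.5% of all genes). Ero1l thus stood above 0 while most genes of the ER folding lists stood below it.

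Among 16 genes of mTORC1 and its regulators the median was -0.029. Deptor, an inhibitor, was highest at 0.61 (adjusted p = 0.452 by edgeR), and Sec13, of the nutrient-sensing GATOR complex and of vesicle coats, lowest at -0.37 (adjusted p = 0.242 by edgeR and 0.0116 by DESeq2). By edgeR 0 passed, and 1 was higher and 3 lower at an unadjusted p under 0.05 (6.53% and 6.5% of all genes). HIF-1 targets were listed because Ddit4 and Ero1l are also known to respond to HIF-1. Of the 19 in the table, 18 were above all controls (11.5% of all genes), with a median of 1.31. By edgeR 6 of the 19 passed, all higher, against 0.152% of all genes. By DESeq2 18 of the 19 passed, all higher, against 2.06%. The number called by edgeR was 1 without control 2 or without library Foxp1cKO 2, 3 without control 1 or without library Foxp1cKO 1, and 11 without control 4, while 18 stayed above all controls in each of these fits. The study drew some of these genes from the same libraries, so their direction is no independent evidence. The list's remaining gene, matched afterwards as Car9, had a log2 fold change of 0.25 with overlapping groups. The log2 fold changes of this list ran from -0.33 (Ndrg1) to 2.53 (Bnip3), with the next lowest, Egln1, at 0.54. The value of Ndrg1 had a standard error of 0.557, and its groups overlapped. Ndrg1 was at 30.5 to 36.0 CPM in controls 1 to 3, 8.32 in control 4, and 14.5 and 28.3 in libraries Foxp1cKO 1 and 2. The study, whose model held litter, has Ndrg1 in its table of top upregulated genes. Ddit4 (1.18) and Ero1l (0.66) lay between Egln1 and Bnip3, and so did Trib3, Chac1 and Atf3. Sesn2, Asns, Ero1lb, Ddit3 and Atf4 lay below Egln1, from 0.42 (Sesn2) down to -0.17 (Atf4). The part of HIF-1 in these values was not tested.

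**Figure D5:**
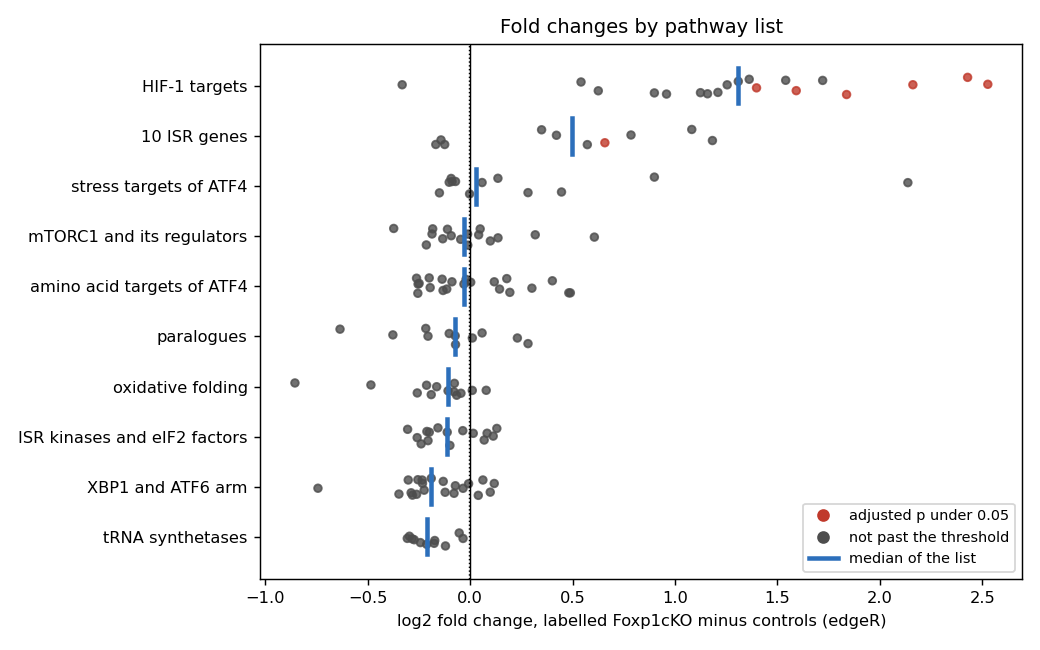
Log2 fold changes (libraries labelled Foxp1cKO minus controls, edgeR) of the genes of 10 lists, each point a gene (red where the adjusted p was under 0.05), with the median of each list as a blue bar and the median of all genes as a dotted line. The HIF-1 targets (median 1.31) and the 10 integrated stress response genes (0.50) lie to the right, and the tRNA synthetases (-0.21) and the XBP1 and ATF6 arm (-0.19) to the left.

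For the 4 members above all controls with a log2 fold change over 0.5, the genes with the most similar pattern were taken from 13204 genes with a mean of at least 100 counts. Likeness was the root mean square difference of log2 CPM over the 6 libraries, each gene centred on its own mean. For Ddit4 the nearest were Pfkfb3 (0.0872), Tnfaip3 (0.108) and Pdzd2 (0.163). Pfkfb3, which encodes an activating enzyme of glycolysis, had 71.3, 75.5, 83.7 and 55.6 CPM in controls 1 to 4 and 111 and 201 CPM in libraries Foxp1cKO 1 and 2. It shared with Ddit4 the lowest control and the gap between the libraries labelled Foxp1cKO. For Ero1l they were A730081D07Rik (0.0410), Dusp3 (0.0488) and the histone demethylase gene Kdm3a (0.0490). Chac1 was nearest to Stc1 (0.124), AA986860 and Trim17, and Atf3 to Icam1 (0.0399), Adgrf5 and Sema3g. Patterns over 6 libraries in 2 groups can be alike by group alone.

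Markers of other cell types were set beside these values. The 9 endothelial genes summed to 149 to 228 CPM in the controls and to 207 and 255 CPM in libraries Foxp1cKO 1 and 2, with 6 of 9 log2 fold changes above 0. The list was split, with a median of 0.024 and Tek (-0.35) and Tie1 (-0.29) lowest, both with overlapping groups. Pecam1 was at 0.65 and above all controls (adjusted p = 0.251 by edgeR and 0.0281 by DESeq2). Flt1, a VEGF receptor gene, passed the threshold (1.64), a call lost without control 1 or 2 or either library labelled Foxp1cKO. The 9 genes of mural and meningeal cells summed to 95.5 to 335 CPM in the controls and to 145 and 237 CPM. Its collagen and other matrix genes varied widely between libraries, Col1a2 from 16.6 to 114 CPM in the controls, and their groups overlapped. The pericyte genes Rgs5 (0.61, adjusted p = 0.161 by edgeR and 0.000697 by DESeq2) and Cspg4 (0.56) were above all controls, and Pdgfrb and Kcnj8 had log2 fold changes of 0.42 and 0.41 with overlapping groups. The 8 microglial genes summed to 22.7 to 36.1 CPM and to 36.7 and 34.3 CPM. Their log2 fold changes ran from -0.19 (P2ry12) to 0.81 (C1qa), with a median of 0.20 and 6 of 8 above 0. Above all controls were 2 of the 8 (11.5% of all genes), and 0 passed by edgeR or DESeq2. No defining marker of these lists was at 0. The 9 cortical neuron genes summed to 2874 to 5225 CPM in the controls, lowest in control 4, and to 3752 and 3930 CPM in libraries Foxp1cKO 1 and 2. Their part in the values of Ero1l, Ddit4 and the other genes was not tested.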

How the data were processed

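RNA of E12.5 lateral cortex was sequenced from 6 embryos. Libraries were stranded and paired-end. The authors used STAR for alignment (mm10), HTSeq 0.9.1 in union mode for counting (strand setting not given in the sources used here), and a filter that dropped weakly expressed genes. The deposited values used here are whole read counts of 17068 genes without normalization. The deposited VST table was not used. Groups came from the sample labels, which give no litter, so the litter term of the authors' model was not used. Per the study's methods, controls were littermates of the Cre-positive embryos. Which embryos shared a litter is not known here.

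Counts were tested in R 4.3.3 with edgeR 4.0.16 (quasi-likelihood, TMM, group alone, adjusted p under 0.05 by Benjamini-Hochberg over all genes). DESeq2 1.42.0 and limma 3.58.1 were alternatives. Each test was tested on simulated data. Symbols, positions and union exon lengths came from GENCODE M21, in which 17047 identifiers were found. Motifs were searched in the 250 bases before each start, leaving out the bases after it that the planned window held. Log2 CPM used a prior count of 2. Intervals and floors cover counting error only, since PCR copies are not independent molecules. The chi-square statistic per gene between replicates of a group was 25.9 to 193, far above counting error, so no library was a copy of another in its group. Numbers 1 and 2 are used for embryos of either group, and nothing in the labels pairs them. The 10 genes and the lists were chosen with earlier results of these data known. Genes named in the text were the 10, the genes past the threshold and the extremes of each list, and nearest profiles. Psat1, Phgdh, Slc7a11, Eif2ak3, Eif2ak4, Ppp1r15a, Cebpb, Nupr1, P4hb, Hspa5, Mars, Car9, Pdgfrb, Kcnj8, Emx1, Pax6, Alas2 and the paralogues Sesn1, Sesn3, Trib1 and Trib2 were named for their roles after their values were seen.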

Additional observations from a re-analysis of the deposited data

How the results depend on the processing

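Over the 14 alternatives, 138 of 139 values of single genes kept their direction. The exception was Ddit3, whose log2 fold change was 0.0039 without library Foxp1cKO 1 (range over single libraries left out, -0.28 to 0.0039). Against 1 of the 10 genes called higher by edgeR, DESeq2 called 2, the replicate block 0 and the crossed block (added after the data were seen) 3. Leaving out single libraries gave 0 to 1. Over all genes the 26 calls became 507 with DESeq2, 0 with the replicate block, 1301 with the crossed block, and 2 to 96 with each library left out. Of the 116 other pathway genes, 0 were called by edgeR and 0 with the replicate block, 8 by DESeq2, 13 with the crossed block, and 0 to 1 with each library left out. Same-numbered libraries deviated from their group means with correlations of -0.20 (number 1) and 0.016 (number 2), and crossed numbers with 0.20 and -0.016. With 2 libraries labelled Foxp1cKO these values mirror each other and cannot settle the pairing. Fits without a library labelled Foxp1cKO leave 1 library in that group, assumed to vary like the controls. Atf3 was removed by the filter of at least 1 CPM in 2 libraries. The cause of these differences was not tested. Counting error limits Chac1 and Atf3 (35 to 115 counts per library) and Trib3 (33 to 199) most.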
